A study of Mus musculus with 15 samples.

Results

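The genes described here are 10 mouse enzymes that activate long-chain fatty acids and place them in phospholipids: the acyl-CoA synthetases Acsl1, Acsl3, Acsl4, Acsl5 and Acsl6, the lysophospholipid acyltransferases Lpcat1, Lpcat2, Lpcat3 and Lpcat4, and the lysophosphatidic acid acyltransferase Agpat3. They were listed by symbol for what the enzymes do, and their probes were found through RefSeq accessions; the rule uses no measured value, although earlier results of these data were known when the list was made. All 10 had a probe, 12 probes in all, and 8 genes were bright enough to be tested among 22557 genes in the series. The study measured total RNA of left hemibrains from male C57BL/6j mice on 2-colour Agilent arrays, with 5 arrays per diet. The ERD group ate a diet enriched in n-3 polyunsaturated fatty acids (PUFA), with an n-3 to n-6 ratio of 7 to 1. The BLD group ate a balanced diet with a ratio of 1 to 1, and the STD group ate the standard laboratory diet with a ratio of 1 to 6. The diets were matched in calories and were given for 24 weeks from 3 weeks of age. No group carried a mutation or received a drug. Each array held hemibrain RNA in Cy5 and the same reference RNA, pooled from 11 mouse cell lines, in Cy3. Every value below is therefore a log2 ratio of hemibrain over reference unless stated otherwise, and the dyes were never swapped. The labels do not say whether 1 array held RNA of 1 animal, so the p-values measure the spread between arrays.

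A fatty acid enters phospholipid metabolism only after an acyl-CoA synthetase joins it to coenzyme A. Lysophospholipid acyltransferases then transfer the acyl chain to a lysophospholipid, in the remodelling route known as the Lands cycle, while Agpat enzymes acylate lysophosphatidic acid in the route that makes phospholipids from glycerol phosphate. Brain membranes are rich in the n-3 PUFA docosahexaenoic acid and the n-6 PUFA arachidonic acid, and several of these enzymes prefer one or the other. In mice, Acsl6 is needed to keep docosahexaenoic acid in brain phospholipids, Acsl4 prefers arachidonic acid, and Lpcat3 places arachidonic and linoleic acid in phosphatidylcholine. The comparison of the diets asks whether the messenger RNAs of these enzymes followed the dietary ratio.

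RefSeq lists 13 start sites for the 10 genes in its GRCm38.p6 promoter table, and 4 windows are shown for 3 genes. Acsl6 had the highest ratio to the reference among the 8 tested genes, Lpcat3 had the lowest, and Agpat3 had the lowest p in the test across the diets. Each window runs 5′ to 3′ from 250 bases before the start to 50 bases after it. Acsl6 has 3 listed starts, and the windows of the first and the second are shown, at chr11:54303574-54303873 and chr11:54303954-54304253 on the plus strand. The window of the third start is not printed. The Lpcat3 window lies at chr6:124662854-124663153 on the plus strand, and the Agpat3 window at chr10:78351651-78351950 on the minus strand. Capitals mark matches, on either strand and with overlaps kept, to any of 5 strings. They are AGGTCA for the nuclear receptor half-site, GGGCGG for the GC box and CACGTG for the E-box. The other two are CCAAT for the box of that name, and TATAAA, here called the TA-rich box.
Acsl6, first start: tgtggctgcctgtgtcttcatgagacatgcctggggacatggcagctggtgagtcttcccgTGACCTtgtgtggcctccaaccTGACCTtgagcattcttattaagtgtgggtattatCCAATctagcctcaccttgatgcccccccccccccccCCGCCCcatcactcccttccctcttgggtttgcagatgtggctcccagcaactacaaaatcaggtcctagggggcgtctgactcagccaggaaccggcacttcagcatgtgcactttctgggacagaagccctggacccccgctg
Acsl6, second start: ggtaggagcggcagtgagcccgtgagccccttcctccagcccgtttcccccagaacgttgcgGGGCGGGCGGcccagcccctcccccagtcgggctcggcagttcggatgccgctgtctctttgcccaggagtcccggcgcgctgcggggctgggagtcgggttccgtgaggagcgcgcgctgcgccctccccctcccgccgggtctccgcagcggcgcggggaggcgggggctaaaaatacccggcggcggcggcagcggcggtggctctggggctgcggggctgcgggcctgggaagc
Lpcat3: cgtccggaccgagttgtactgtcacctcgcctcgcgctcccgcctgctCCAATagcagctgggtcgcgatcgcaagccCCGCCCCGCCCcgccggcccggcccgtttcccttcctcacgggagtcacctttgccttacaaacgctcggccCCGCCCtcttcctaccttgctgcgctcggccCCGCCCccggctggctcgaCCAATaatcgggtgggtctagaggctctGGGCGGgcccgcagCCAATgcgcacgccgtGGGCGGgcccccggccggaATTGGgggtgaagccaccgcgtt
Agpat3: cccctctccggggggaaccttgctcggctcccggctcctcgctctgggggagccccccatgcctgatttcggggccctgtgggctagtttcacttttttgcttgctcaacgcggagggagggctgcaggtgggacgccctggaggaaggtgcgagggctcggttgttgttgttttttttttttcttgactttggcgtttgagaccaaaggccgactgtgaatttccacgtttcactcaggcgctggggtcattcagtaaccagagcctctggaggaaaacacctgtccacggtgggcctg
The first Acsl6 window held 2 matches to the nuclear receptor half-site, 1 GC box, 1 CCAAT string and 5 CpG dinucleotides. The second held 2 GC boxes and 36 CpG, and the third 1 GC box, 2 CCAAT strings and 1 CpG. The Lpcat3 window held 6 GC boxes, 4 CCAAT strings and 36 CpG. The Agpat3 window held 15 CpG and no match to any of the 5 strings. Over all 13 windows of the 10 genes, the half-site was present in 1, the GC box in 10, the E-box in 0, CCAAT in 7 and the TA-rich box in 1. Among 32851 windows of the whole table these strings were present in 16.3%, 35.7%, 7.2%, 37.4% and 13.6%, in the same order, and the median window held 7 CpG. A match describes these letters and does not show a bound site.

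Some arrays stood apart before any gene was considered. Between 17720 and 28117 spots were well above background in Cy5 on the ERD arrays, against 22467 to 31991 on the BLD arrays and 24764 to 29140 on the STD arrays. The ERD minimum was ERD 1 alone, and the next lowest ERD array, ERD 3, had 24048. Arrays ERD 1, BLD 3 and ERD 4 correlated least with the rest. Arrays were spread over 8 slides, and 1 ERD, 3 BLD and 0 STD arrays were scanned on the second of 2 days. Markers of the tissue were far above the reference: the neuronal Syt1 averaged 7.90 in ERD, 7.50 in BLD and 8.55 in STD, and Mal, a gene of oligodendrocytes, averaged 4.77, 4.46 and 4.51 in the same order.

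Of the 5 acyl-CoA synthetases, Acsl6 and Acsl3 were clearly above the cell line reference in hemibrain, Acsl1 and Acsl4 lay close to it, and Acsl5 was below it, in all 3 diets. Acsl6, the synthetase known for its preference for docosahexaenoic acid, had log2 ratios of 2.95, 4.62, 3.60, 3.29 and 3.60 on the ERD arrays. It had 4.97, 3.35, 3.81, 4.31 and 3.56 on the BLD arrays, against 3.63, 4.78, 3.23, 4.04 and 3.27 on the STD arrays. The diets overlapped over nearly their whole range, with 1 or 2 high arrays in each. The mean over all 15 arrays was 3.80 with the background correction used here. The Cy3 reference signal of this probe was well above background on only 3 arrays of each diet, so no exact fold over the reference is given. The deposited ratios, computed by the scanner software, averaged 6.64 in ERD, 6.13 in BLD and 7.11 in STD on the same log2 scale, larger than the ratios above and in another order of diets. The within-diet SD of Acsl6 was 0.64, larger than that of 95.2% of genes. In limma's moderated test, with Benjamini-Hochberg adjustment over 22557 genes, the ERD minus STD change was -0.18 ± 0.36 (SE; 95% interval -0.95 to 0.59; adjusted p = 0.848). The BLD minus STD change was 0.21 ± 0.36 (95% interval -0.56 to 0.98; adjusted p = 0.859). An interval of this width does not separate a modest increase from a modest decrease. In the Cy5 channel alone, without the weak reference signal, ERD minus STD was 0.12 and BLD minus STD was 0.06. ERD minus BLD was 0.06 in Cy5 alone, against -0.39 as a ratio, so the sign of the ERD changes depended on the reference.

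Acsl3, a synthetase of the endoplasmic reticulum and lipid droplets, had ratios of 0.55, 1.15, 0.51, 0.77 and 1.03 in ERD and 0.78, 1.04, 1.33, 0.86 and 1.36 in BLD. In STD the ratios were 0.93, 1.08, 1.32, 0.93 and 0.21. Hemibrain was above the reference on every array, 1.90-fold over all 15 with the background correction used here, and the lowest array was STD 5. The deposited log2 ratios averaged 1.29, against 0.92 here. The ERD mean was below the BLD mean by 0.27 ± 0.20 (SE; 95% interval of ERD minus BLD -0.69 to 0.14; adjusted p = 0.642), within the spread of the arrays. Acsl4, which prefers arachidonic acid and other PUFA, had ratios of -0.42, -0.21, -0.32, -0.51 and -0.63 in ERD. In BLD it had 0.07, -0.33, 0.03, -0.52 and -0.93, and in STD -0.22, -0.32, -0.56, -0.17 and -0.56. The BLD arrays spread most and enclosed the ERD and STD arrays, and ERD differed from STD by -0.05 ± 0.17 (SE; 95% interval -0.42 to 0.31; adjusted p = 0.916).

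Acsl1, a major synthetase of mitochondria and endoplasmic reticulum in liver, fat and heart, had ratios of 0.40, 0.34, -0.07, 0.15 and 0.19 in ERD. In BLD the ratios were 0.44, 0.22, 0.66, 0.14 and -0.02, against -0.03, 0.20, -0.03, 0.35 and 0.29 in STD. The 3 diets overlapped, and ERD minus STD was 0.05 ± 0.14 (SE; 95% interval -0.25 to 0.34; adjusted p = 0.904). Acsl5, a synthetase best known from intestine and liver, had ratios of -1.42, -1.42, -1.08, -1.20 and -0.99 in ERD. In BLD the ratios were -1.13, -1.01, -1.25, -0.88 and -0.93, against -1.41, -0.93, -1.38, -1.04 and -1.64 in STD. The reference was 2.27-fold above hemibrain over all 15 arrays with the background correction used here. The deposited log2 ratios averaged -1.63, against -1.18 here. BLD minus STD was 0.24 ± 0.14 (SE; 95% interval -0.06 to 0.54; adjusted p = 0.531), with STD 2 the highest STD array and inside the BLD range.

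Among the acyltransferases, Lpcat1 was close to the reference, while Agpat3 and Lpcat3 were below it on average in each diet. Lpcat3 had ratios of -1.35, -1.97, -1.15, -1.31 and -1.43 in ERD and -1.51, -1.22, -1.96, -1.10 and -1.50 in BLD. In STD the ratios were -1.91, -1.70, -1.54, -1.54 and -1.36. The reference was 2.84-fold above hemibrain over all 15 arrays with the background correction used here. The deposited log2 ratios averaged -2.02, against -1.50 here. ERD minus STD was 0.17 ± 0.18 (SE; 95% interval -0.21 to 0.54; adjusted p = 0.677), the largest positive change among the 8 genes in that comparison, and the arrays overlapped. Lpcat1, which makes disaturated phosphatidylcholine in lung, had ratios of 0.23, 0.14, 0.10, 0.00 and 0.13 in ERD. In BLD the ratios were 0.04, 0.06, -0.21, 0.19 and 0.44, against 0.17, 0.20, -0.09, -0.02 and 0.52 in STD. All ERD arrays lay inside the ranges of the other two diets, and ERD minus STD was -0.03 ± 0.13 (SE; 95% interval -0.32 to 0.25; adjusted p = 0.930).

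Agpat3 came closest to a difference between diets. Its ratios were -0.53, -0.77, -0.65, -0.68 and -0.49 in ERD and -0.63, -0.61, -0.69, -0.67 and -0.73 in BLD, against -0.47, -0.59, -0.29, -0.70 and 0.35 in STD. The ERD and BLD arrays lay close together, whereas STD 5 stood above every other array and STD 4 lay among the ERD and BLD arrays. STD 2, at -0.59, also lay inside the ERD range. In the deposited log2 ratios STD 5 was at -0.07, still the highest array but below the reference. The deposited means were -0.72 in ERD, -0.75 in BLD and -0.47 in STD. ERD minus STD was -0.29 ± 0.16 (SE; 95% interval -0.62 to 0.05; adjusted p = 0.408 in limma). BLD minus STD was -0.33 ± 0.16 (95% interval -0.66 to 0.00; adjusted p = 0.464 in limma). Both comparisons share the same 5 STD arrays. Without STD 5 the changes were -0.11 and -0.16, in the same order, and with slide as a fixed block they were -0.06 and -0.12. With median centring in place of loess, BLD minus STD was -0.03, and ERD minus BLD was -0.33 against 0.04 as reported. On the 3 slides that held both ERD and STD arrays, the ERD minus STD differences were -0.18, -0.18 and 0.21, from 1 array each. On the first scan day, with 4 ERD and 5 STD arrays, the difference was -0.27. In the Cy5 channel alone, without the reference, ERD minus STD was -0.27 and BLD minus STD was -0.35, while the Cy3 reference channel gave -0.03 and 0.01.

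**Figure D1:**
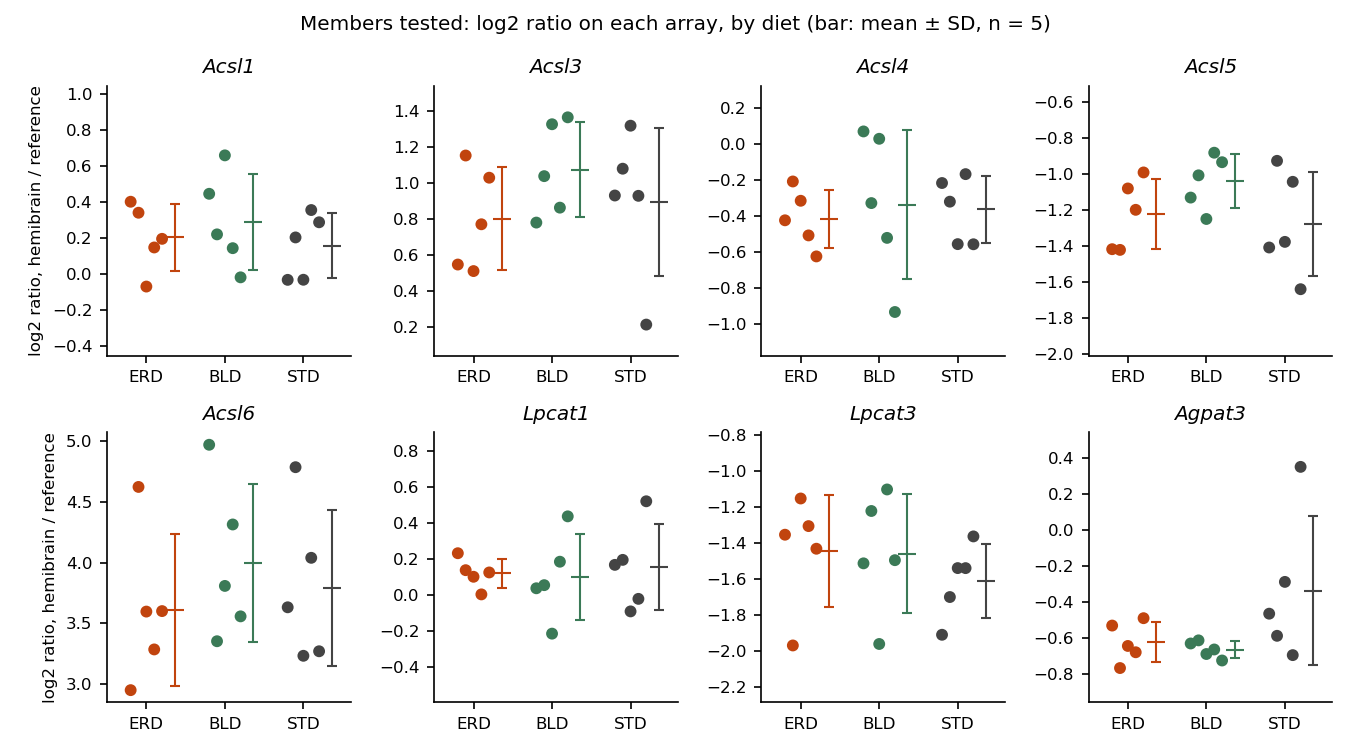
Log2 ratio of hemibrain over reference for the 8 tested genes (vertical axis, its own range in each panel) on the 5 arrays of each diet (points, ERD, BLD and STD from left to right). Bars give the mean ± SD; the diets overlap in every panel, and array STD 5 stands alone at 0.35 for Agpat3.

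Lpcat2, known for making platelet-activating factor in inflammatory cells, and Lpcat4 had no usable signal in hemibrain. The Cy5 signal of Lpcat2 was well above background on 0 ERD arrays, 1 BLD array and 1 STD array. Its median pixel intensity lay between 20 and 31, against a local background of 16 to 21. Lpcat4 was well above background on 0 of 15 arrays in Cy5 and in Cy3, with Cy5 intensities of 15 to 26. Neither gene was tested, since the filter asked for 5 arrays well above background, and no level or change is given for them. A dim probe does not show that the gene is not transcribed.

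Acsl1 and Acsl6 each had a second probe. The first Acsl6 probe (A_51_P380699), on which the values above rest, was well above background in Cy5 on all 15 arrays. The second (A_52_P352187) had Cy5 intensities of 18 to 38, against a local background of 17 to 20. It was well above background in Cy5 on 1 ERD, 2 BLD and 3 STD arrays, and in Cy3 on 0 of 15 arrays. Its ERD minus STD change was -0.19 ± 0.13 (SE; adjusted p = 0.511 in limma across all probes), against -0.18 for the first. In BLD minus STD the second probe gave 0.02 and the first 0.21, and in ERD minus BLD the second gave -0.21 and the first -0.39. The second Acsl1 probe (A_51_P463452) had ratios of -0.60 to -0.12 in ERD, -0.57 to 0.24 in BLD and -0.49 to -0.31 in STD. It was dim, with Cy5 intensities of 25.5 to 67.5, and was well above background in Cy5 on 11 of 15 arrays. Its ERD minus STD change was 0.09 ± 0.13 (adjusted p = 0.798 in limma across all probes), against 0.05 for the first. Levels of different probes cannot be compared with each other. Changes between diets can be compared where both probes are bright, which neither the second Acsl6 probe nor the second Acsl1 probe was. The deposited log2 ratios of the second Acsl6 probe averaged 1.23 in ERD, 2.04 in BLD and 2.91 in STD, further apart than the changes above. Those of the second Acsl1 probe averaged -1.51, -0.72 and -1.46 in the same order. None of the changes above passed the test.

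**Figure D2:**
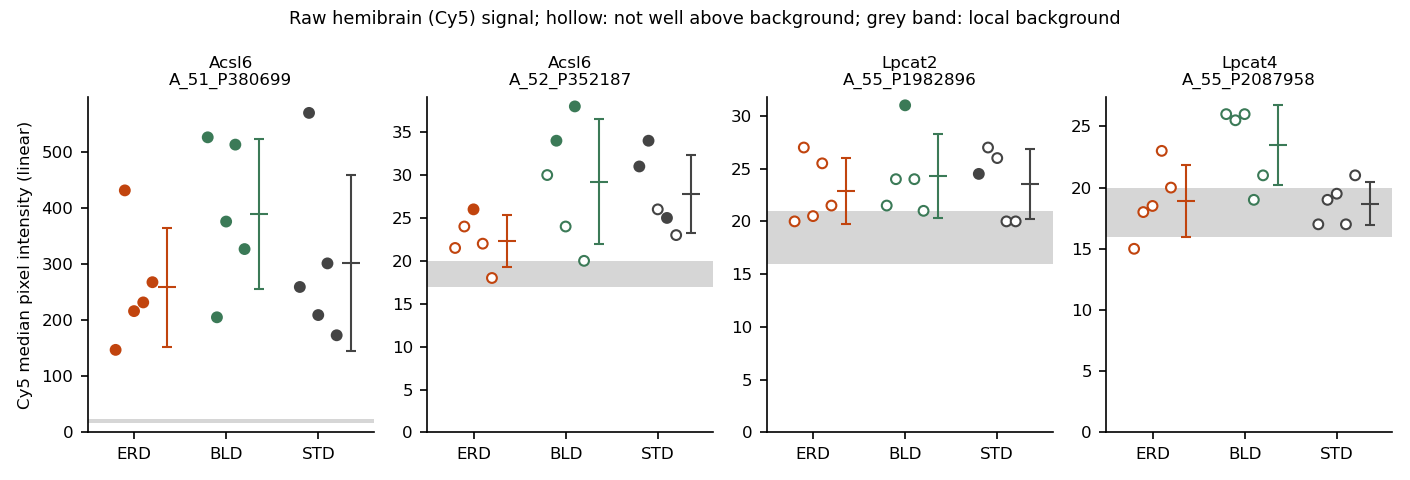
Raw Cy5 median pixel intensity on a linear scale for both Acsl6 probes, Lpcat2 and Lpcat4 on each array, by diet; filled points are well above background, hollow points are not, bars give the mean ± SD, and the grey band spans the local background. The first Acsl6 probe lies between 147 and 569, while Lpcat2 stays at or below 31 and Lpcat4 at or below 26.

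No tested enzyme passed an adjusted p of 0.05 between any pair of diets. In ERD against STD, 0 of 8 genes passed, against 0.217% of all genes tested, and 0 of 8 had an unadjusted p under 0.05, against 14.6% of all genes. Of the 8, 3 were higher and 5 lower in ERD, with a median log2 change of -0.04 against 0.02 over all genes. The ERD and STD arrays overlapped for all 8, while they did not overlap for 3.78% of all genes. The changes ran from -0.29 for Agpat3 to 0.17 for Lpcat3, and the adjusted p from 0.408 to 0.930. The median absolute change of the 8 was 0.07, against 0.16 over all genes.

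In BLD against STD, 0 of 8 genes passed, against 0.00887% of all genes, and 0 of 8 had an unadjusted p under 0.05, against 10.8%. Here 6 were higher and 2 lower in BLD, with a median of 0.14 against 0.05 over all genes, of which 60.5% were higher. The BLD and STD arrays overlapped for all 8, and did not overlap for 2.89% of all genes. In ERD against BLD, 0 of 8 passed, against 0% of all genes, and 0 of 8 had an unadjusted p under 0.05, against 10.4%. The median was -0.08 against -0.04 over all genes, and the arrays did not overlap for 0 of 8 genes, against 1.37% of all genes. The moderated F test over the 3 diets called 0 of 8, against 0.0488% of all genes, and 0 of 8 had an unadjusted p under 0.05, against 13.5%. The mean was highest in BLD for Acsl1, Acsl3, Acsl4, Acsl5 and Acsl6, in ERD for Lpcat3, and in STD for Lpcat1 and Agpat3. Of these Acsl genes, only Acsl5 was also highest in BLD in the deposited ratios. Over all genes, 42.0% were higher in ERD than in BLD. The span between the highest and the lowest diet mean ran from 0.05 for Lpcat1 to 0.39 for Acsl6, and no difference between diets passed the adjusted threshold. BLD, whose n-3 to n-6 ratio lies between those of the other diets, had an intermediate mean for Lpcat3 alone. For that gene ERD minus BLD was 0.02 ± 0.18 (SE) and changed sign under 11 of 29 alternative settings. In the deposited ratios, Lpcat3 was highest in BLD, and BLD was intermediate for Acsl3 alone.

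**Figure D3:**
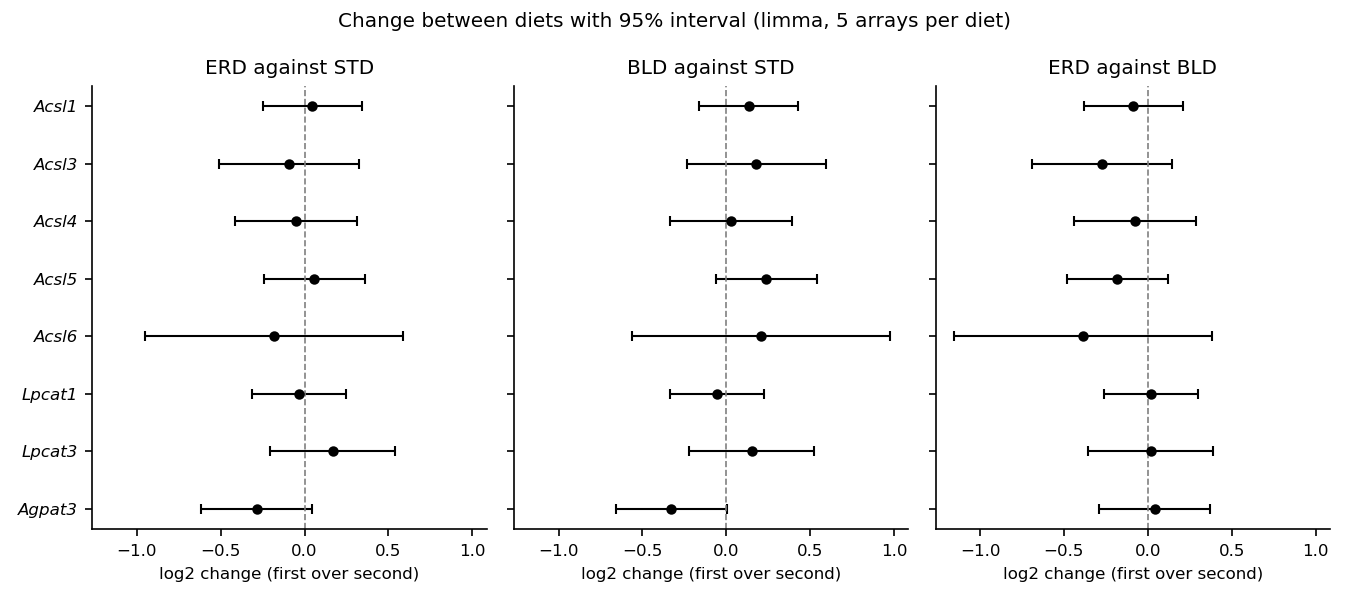
Log2 change between diets (horizontal axis, first diet over second) for the 8 tested genes in ERD against STD, BLD against STD and ERD against BLD, with 95% intervals from limma. The interval includes 0 for every gene in every comparison and is widest for Acsl6, where it runs from -0.95 to 0.59 in ERD against STD.

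The width of the intervals sets what could be seen. The standard errors of the 8 genes ran from 0.13 to 0.36 with a median of 0.16, the same median as over all genes. Their within-diet SDs ran from 0.20 for Lpcat1 to 0.64 for Acsl6, with a median of 0.26, again that of all genes. As linear folds, the intervals of ERD over STD reached no lower than 0.517 and no higher than 1.50, both for Acsl6. The smallest change called for any gene in ERD against STD was 0.53 in absolute size. In bulk tissue, a change in the number of cells of a type and a change in RNA per cell cannot be told apart.

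Recomputing the 24 changes under 29 alternative settings gave 696 values, of which 0 passed the adjusted threshold, 13 had an unadjusted p under 0.05 and 83 changed sign. The gene that depended most on the processing was Acsl6 in BLD against STD. Its change was 0.21 as reported but -0.98 with the scanner software's processed signals (adjusted p = 0.329 in limma). For Agpat3, the ERD minus STD change kept its negative sign under all 29 settings, from -0.37 without STD 4 to -0.06 with slide as a fixed block. The same held for Acsl4, whose ERD minus STD change was only -0.05 as reported. Of the 29 settings, 15 left out 1 array of the same data.

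**Figure D4:**
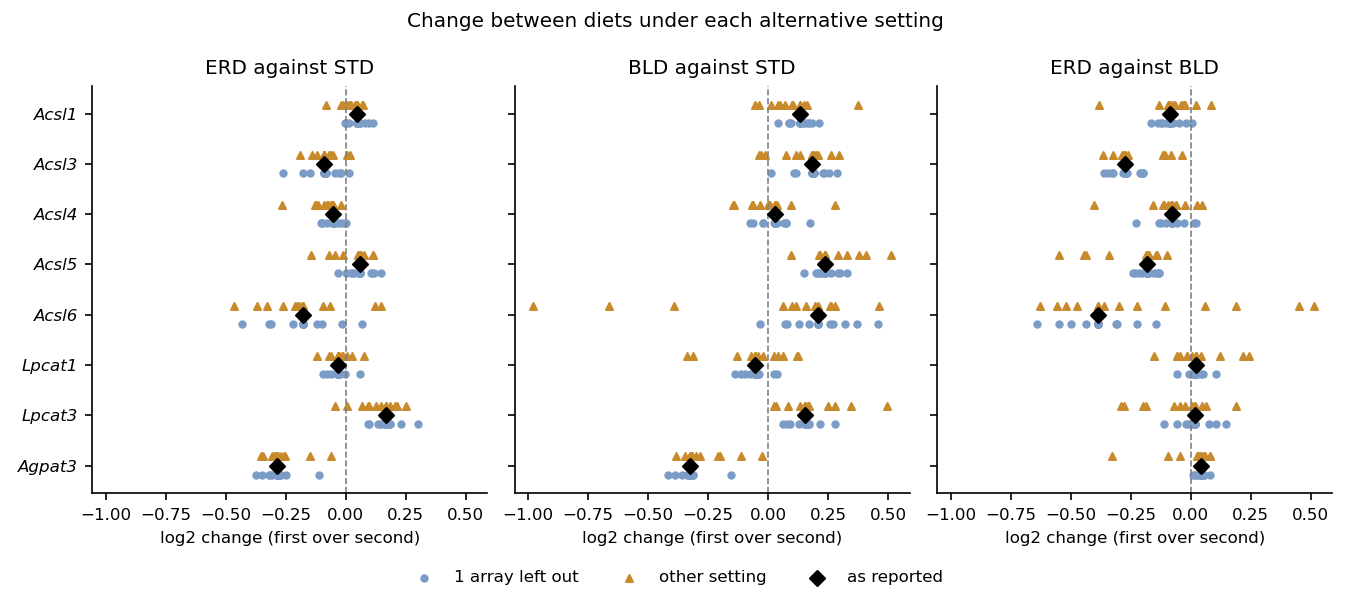
Log2 change of each gene (horizontal axis, first diet over second) as reported (black diamonds), with 1 array left out (blue circles) and under the other alternative settings (orange triangles). Most values stay within 0.5 of 0; the Acsl6 value of -0.98 in BLD against STD comes from the processed signals.

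Neighbouring steps of the same metabolism were examined through 4 lists of genes. Of 11 tested of 14 other acyl-CoA synthetases, 0 passed in any comparison. The lowest p in ERD against STD belonged to Aacs, which activates acetoacetate, at -0.67 ± 0.30 (SE; adjusted p = 0.320), and to Acsf3, which activates malonate in mitochondria, at 0.28 ± 0.16 (adjusted p = 0.428). Of 13 tested of 14 other glycerolipid acyltransferases, 0 passed. Lclat1, which acylates lysocardiolipin, was at -0.38 ± 0.12 (SE; adjusted p = 0.191) and Agpat4 at -0.30 ± 0.17 (adjusted p = 0.432). Medians of these lists in ERD against STD were 0.02 and 0.06, against 0.02 over all genes.

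Of 14 tested of 17 acyl-CoA binding proteins and thioesterases, 0 passed. Acot3, a peroxisomal thioesterase, had the widest spread. Its ratios ran from 1.44 to 5.03 in ERD and from 0.50 to 4.79 in BLD, against 0.35 to 1.10 in STD. The ERD minus STD change was 2.26 ± 0.80 (SE; adjusted p = 0.223), and the ERD arrays lay above all STD arrays, although the ERD SD of 1.58 was more than the STD SD of 0.29. Acot3 has close relatives in the mouse genome, and whether its probe also binds their RNA was not tested. Acbd5, a peroxisomal acyl-CoA binding protein, was at -0.31 ± 0.13 (SE; adjusted p = 0.295).

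Of 25 tested genes for phospholipid head groups, 0 passed in ERD against STD. Of the 25, 8 were higher and 17 lower in ERD, while 53.0% of all genes were higher, and the list median was -0.15 against 0.02 over all genes. An unadjusted p under 0.05 was found for 7 of the 25, of which 6 were lower in ERD, against 14.6% of all genes in either direction. Pcyt1b, the CTP-dependent enzyme at the control step of phosphatidylcholine synthesis, ranged from -0.16 to 0.35 in ERD, against 0.37 to 0.74 in STD. Its change was -0.56 ± 0.14 (SE; adjusted p = 0.111), and its probe was well above background on 3 of 5 ERD arrays. Pgs1, which makes the precursor of phosphatidylglycerol and cardiolipin, ranged from -0.24 to 0.17 in ERD, against 0.22 to 1.05 in STD. Its change was -0.55 ± 0.17 (SE; adjusted p = 0.172). The arrays of ERD and STD did not overlap for either gene, as for 3.78% of all genes.

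Markers of brain cell types were also mostly lower in ERD than in STD; no single marker passed the adjusted threshold. In ERD against STD, 9 of 10 neuronal markers were lower with a median of -0.28, and 8 of 10 oligodendrocyte markers were lower with a median of -0.24. Astrocyte, microglia and endothelial lists had medians of -0.16, -0.17 and -0.19, with 8, 7 and 8 of 10 genes lower. The choroid plexus list had a median of -0.22 with 5 of 6 lower, and the erythroid list -0.05 with 2 of 3 tested genes lower. Taken as the mean of the list on each array, relative to each gene's STD mean, the neuronal markers ran from -1.06 to -0.03 in ERD and from -0.24 to 0.33 in BLD, against -0.23 to 0.31 in STD. The mean over the 8 enzymes, expressed the same way, ran from -0.13 to 0.06 in ERD and from -0.02 to 0.20 in BLD, against -0.09 to 0.16 in STD. The part of cell type markers in the values of the 8 enzymes and of the head group list was not tested.

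Single markers did not all follow their lists. Syt1 was at -0.65 ± 0.37 (SE; adjusted p = 0.426) in ERD against STD while Snap25, also neuronal, was at 1.38 ± 0.54 (adjusted p = 0.259). Aldoc of astrocytes was at -0.61 ± 0.17 (adjusted p = 0.142) and S100b at -0.17 ± 0.14 (adjusted p = 0.596). Against 8 lower astrocyte markers, 2 were higher in ERD: Gfap at 1.04 ± 0.27 (adjusted p = 0.121) and Aqp4 at 0.76 ± 0.36 (adjusted p = 0.349). Mal of oligodendrocytes was at 0.26, and Itgam and Csf1r of microglia at 1.20 and -0.26. Flt1 and Cldn5 of endothelium were at -0.09 and -0.30, Ttr and Folr1 of choroid plexus at -0.17 and 0.29, and Hba-a1 and Alas2 of red cells at 0.16 and -0.05. Hba-a1 averaged 4.40 in ERD, 4.48 in BLD and 4.24 in STD, above the reference in all 3 diets, and the source of this RNA was not tested.

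Agpat3 had the lowest p of the F test among the tested enzymes, so the genes with the most similar pattern were sought for it. Over the 15 arrays, the 3 named genes with the highest Pearson correlation were Zdhhc18 (r = 0.905), a palmitoyltransferase, Abcg1 (r = 0.893), a sterol transporter, and Flcn (r = 0.877), the folliculin gene. All 3 had their highest STD value on STD 5, at 0.36, 1.74 and 0.81 in that order, the array on which Agpat3 was also highest. The correlations describe these arrays, which share their reference and their slides, and were picked as the highest of all genes.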

How the data were processed

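Hemibrain (Cy5) and reference (Cy3) RNA were measured on 15 arrays, 5 per diet, grouped by the diet label. Per the file headers, the deposited files give intensities of each spot and its local background as medians over pixels, and processed intensities. The deposited log10 ratios of Cy5 over Cy3 equal those in the scanner files. The file headers name Agilent Feature Extraction 11.5.1.1, while the submitters' processing notes name 10.7. Per the labels' protocols, Trizol was used for extraction.

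Median intensities were background-corrected (normexp, offset 50) and loess-normalized within arrays in limma 3.58.1 (R 4.3.3; data.table, version 1.17.8). Outlier spots (0.574%) were left out, replicate spots were averaged, and a probe was kept if its Cy5 signal was well above background on 5 or more arrays and it had 8 or more values (26348 of 55681 probes). Symbols came from RefSeq accessions (27656 probes). Each symbol took its probe of highest mean Cy5 level, and each probe without a symbol was kept singly and counted as a gene. This gave 22557 genes, 13763 with a symbol, and the shares of all genes are over this set. A single limma fit over 15 arrays (12 residual degrees of freedom) gave 2-sided p-values, adjusted by Benjamini-Hochberg over all genes, called under 0.05. The fit was tested on simulated data. Precision is limited by the number of arrays.

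Besides the 10 enzymes, the text names 2 genes per pathway list with the lowest p in ERD against STD, up to 2 markers per cell type with the highest Cy5 level, and 3 genes most like Agpat3. Gfap and Aqp4 were added as the astrocyte markers higher in ERD than in STD. The enzymes and lists were chosen with earlier results of these data known. Alternatives covered background, normalization, filters, slide, scan day, array weights and each array left out. Figures used Python 3.11.15, pandas 2.3.3, numpy 2.4.6 and matplotlib 3.10.9. The values of 1 gene that this rule takes are not reported here.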

Additional observations from a re-analysis of the deposited data

How the results depend on the processing

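Of the 8 tested enzymes, 0 passed the adjusted threshold in any comparison under any of the 29 alternative settings, while the counts over all genes moved. In ERD against STD, 49 genes passed as reported. The count was 0 with median centring, 32 with probes well above background on all arrays, 1 with slide as a fixed block, 101 with slide as a random block and 11 with scan day as a block. It was 122 with array weights, 0 without the 3 least correlated arrays and 92 with Cy5 detection (the number of spots well above background) as a covariate. With 1 array left out it ran from 5 (without ERD 4) to 170 (without ERD 3). In BLD against STD, 2 passed as reported. The count was 1 with a normexp offset of 1, processed signals, median centring, scaling between arrays or scan day, 5 with no filter or with all arrays well above background, 0 with slide fixed, 7 with slide random and 23 with array weights. With 1 array left out it ran from 1 to 10. In ERD against BLD, 0 passed as reported (2344 at an unadjusted p under 0.05), 1 with slide fixed, and 0 to 1 with 1 array left out. The F test called 11 as reported. It called 1 with offset 1, processed signals, median centring, slide fixed or without the 3 least correlated arrays, 5 with Cy5 alone and 20 with scaling. It called 63 with slide random, 3 with scan day, 48 with array weights and 45 with Cy5 detection as a covariate, and 1 to 24 with 1 array left out. The cause of these shifts was not tested.

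Among the enzymes, an unadjusted p under 0.05 was found in 13 of 696 values. For Agpat3 these were -0.37 without STD 4 and -0.35 with Cy5 detection as a covariate in ERD against STD, and 3 settings in BLD against STD, of which the lowest value was -0.42 without STD 4. In BLD against STD there were 2 such settings each for Acsl5 and Lpcat3, which reached 0.51 and 0.50 with scaling between arrays. Acsl6 had 1 there, at -0.98 with processed signals. In ERD against BLD, Acsl5 had 2 such settings and Acsl3 had 1, at -0.37 with slide as a fixed block. Signal over background limits Lpcat2, Lpcat4, the second Acsl6 probe and the reference signal of Acsl6. No paired analysis was possible because the replicate numbers 1 to 5 were given in accession order and pair no arrays, so the fit with a replicate block was not run. Slides that held arrays of more than 1 diet were used as a block instead, as above.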
